A study of Homo sapiens with 9 samples.

Results

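The 31 genes described here encode the enzymes and regulators of sterol and fatty acid synthesis, and were chosen by gene symbol from the 61544 genes counted in the data. They comprise 5 regulators, 7 enzymes of the mevalonate steps, 11 enzymes of the squalene and sterol steps, 1 sterol transfer protein and 7 enzymes of fatty acid synthesis. All 31 were found by their Ensembl identifiers and all 31 passed the filter on low counts. RNA-Seq was performed on H1975, an established human lung adenocarcinoma cell line, in 9 libraries. In every library the endogenous GRP78, the ER chaperone encoded by HSPA5, had been depleted by 24 h of si78, which is an siRNA that targets the 3′UTR of the HSPA5 transcript. The cells were then transfected for 48 h with the empty plasmid pcDNA3 (vector), with F-78(WT), a FLAG-tagged wild-type GRP78 (group WT), or with F-78(NLS Mut), in which lysines of the nuclear localization signal are replaced by alanine (group NLS Mut). Each of the 3 groups had 3 libraries, and no library of cells that had not received si78 was analysed here. The comparisons ask how the transcripts differ between cells with re-expressed GRP78 and cells without it, and between the wild-type protein and the one with the mutated signal. All groups are transiently transfected populations of 1 cell line, and nothing in the labels says whether replicates came from separate cultures, so the p-values measure the spread between these libraries only.

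Cells make cholesterol from acetyl-CoA through the mevalonate steps, which yield isoprenoid units, and through the squalene and sterol steps, which fold squalene into a ring and trim it. Fatty acid synthesis begins from the same acetyl-CoA. Both branches are under the transcription factors SREBP1 and SREBP2, which are made as ER membrane proteins. The escort SCAP carries them to the Golgi for cleavage when ER cholesterol is low, and the INSIG proteins hold SCAP in the ER when sterols are plentiful. The cleaved factors bind sterol response elements and E-boxes, usually beside sites for NF-Y and Sp1, and SREBF1, SREBF2, INSIG1 and STARD4 are themselves targets of the pathway.

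The letters that these factors are known to read were looked for in RefSeq promoters (GRCh38.p14). Promoter windows of 300 bases, from 250 before to 50 after a transcription start, were found for 27 of the 31 genes, in 37 windows, and FDFT1, SQLE, ACAT2 and FASN were not among them. The sterol response element core TCACNCCAC, searched on both strands, was found in 1 of the 37 windows (2.7%) and in 1.13% of all 35116 promoter windows. It lay in the promoter of SREBF2, and the palindromic E-box CACGTG was found in the promoters of INSIG1, SCAP, SC5D and LSS. These are shown because they match letters that the SREBP factors are known to bind. The search took only the exact letters of each motif within the 300 bases, so variant or more distant elements were not looked for. Each sequence is read 5′ to 3′ on the strand of the gene, and the capitals mark the motif.
SREBF2 (chr22:41832962-41832990, plus strand, first capital at -133 from the start): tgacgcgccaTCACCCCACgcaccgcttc
INSIG1 (chr7:155297813-155297838, plus strand, first capital at -55): cgggcaggctCACGTGatgcgggccc
SCAP (chr3:47475984-47476009, minus strand, first capital at -58): ccgctgggcgCACGTGcggagggcgg
SC5D (chr11:121292630-121292655, plus strand, first capital at -131): gcgcggcgccCACGTGaccgcggaga
LSS (chr21:46228725-46228744, minus strand, first capital at 41): tgacggagggCACGTGagtc

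The promoters of SCD and STARD4, shown because SCD was the 1 member called and STARD4 had the smallest p of the remaining members between WT and NLS Mut, each held 2 copies of CCAAT, the letters of an NF-Y site, in the forward direction.
SCD (chr10:100346994-100347018, plus strand, first capital at -229): ttgcgccgagCCAATggcaacggca
SCD (chr10:100347037-100347061, plus strand, first capital at -186): ttcccttcggCCAATgacgagccgg
STARD4 (chr5:111512651-111512675, minus strand, first capital at -130): cccgcgccagCCAATccgaacaagc
STARD4 (chr5:111512682-111512706, minus strand, first capital at -161): ttatcggccaCCAATcagccctcca

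CCAAT was found, on either strand, in 64.9% of the 37 windows and in 34.6% of all promoter windows. GGGCGG, the core letters of an Sp1 site, was found in 89.2% of the 37 windows and in 45% of all. The palindromic E-box CACGTG stood in 13.5% against 7.26%, and the looser E-box CANNTG, which includes CACGTG, in 51.4% against 68.7%. Windows of the same gene can overlap, and the CACGTG site of SC5D is counted in each of its 2 windows. By gene, of 27, CCAAT was in 20, GGGCGG in 26, CACGTG in 4 and CANNTG in 18. STARD4 had 1 CANNTG and SCD had none. These matches are a description of letters in the windows and say nothing of binding.

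The libraries held 17671055 to 27476298 counted reads. HSPA5 checks the labels of vector against F-78, but not those of WT against NLS Mut. It lay between 359 and 391 CPM (the count relative to the TMM library size) in the vector libraries. With WT it lay between 5031 and 6145 CPM (mean 5664) and with NLS Mut between 4765 and 5156 CPM (mean 4961), so that every F-78 library lay above every vector library. The part of the difference in HSPA5 between WT and NLS Mut in the results was not tested. By edgeR's quasi-likelihood test the log2 difference from vector was 3.91 in WT (SE 0.06, adjusted p = 2.24e-28) and 3.72 in NLS Mut (SE 0.06, adjusted p = 7.15e-28). All 7 epithelial markers were detected, with a summed level of 4380 to 5138 CPM. Of the markers of fibroblasts, endothelial cells and leukocytes, DCN, CD3E and LYZ were at 0 in all 9 libraries. CD68 was listed at 0 in the count used but held 8 to 38 reads a library when the counts of each strand were added, so its level is unknown. The list of those 9 markers summed to 12.7 to 13.6 CPM with vector, to 15.0 to 15.7 CPM with WT and to 10.6 to 13.1 CPM with NLS Mut, wholly above the other groups in WT, and PDGFRB made up most of it, at 6.90 to 11.7 CPM. The part of these markers in the results was not tested. The epithelial genes CDH1 and KRT19 differed between WT and NLS Mut by a log2 of 0.27 and 0.23 and were called by edgeR. CDH1 was also called between NLS Mut and vector, at -0.25. The epithelial markers did not all go the same way. Mean levels with WT and NLS Mut were 196.6 and 196.9 CPM for EPCAM and 1247 and 1275 CPM for KRT7. For KRT8, KRT18 and NKX2-1 the mean was higher with WT (1644 and 1480, 539.8 and 495.4, and 29.9 and 23.3 CPM). The part of the epithelial markers in the results was likewise not tested. Features of the vector libraries bear on the results below. Without vector replicate 1, edgeR called 6.33% of all tested genes between WT and vector, 5.05% between NLS Mut and vector and 1.95% between WT and NLS Mut, and the calls of members given without that library stand beside these shares. Vector replicate 1 differed from vector replicates 2 and 3 by a chi-square per degree of freedom of 11.3 and 12.6, against 4.42 between those others. Pairs of WT libraries differed by 7.03 to 10.1 and pairs of NLS Mut libraries by 3.55 to 4.73. The counts of vector replicate 1 followed the GC content of the genes with a log2 slope of -0.04 per 10 percentage points of GC. That lay within the range of the F-78 libraries, -0.08 to 0.03, whereas vector replicates 2 and 3 lay above it, at 0.10 and 0.11. Without vector replicate 1, the vector libraries therefore did not overlap the F-78 libraries in GC slope. Values after a correction for GC content and transcript length (the GC and length correction) are given with the members whose value in every library is listed.

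Per kilobase of transcript, SCD was the most abundant of the 31 genes in these libraries, at a mean of 163 CPM per kilobase over the 9 libraries. ACLY and FASN followed at 72.8 and 68.4, and their libraries overlapped. SREBF1 and SREBF2 came next at 43.1 and 41.7 CPM per kilobase, and also overlapped. Among the mevalonate enzymes the levels ran from 25.5 CPM per kilobase for PMVK to 3.77 for MVK, and among the squalene and sterol enzymes from 26.6 for DHCR7 to 0.52 for CYP51A1. The 31 genes summed to between 3380 and 3528 CPM in the vector libraries, between 3627 and 3701 CPM with WT and between 3485 and 3528 CPM with NLS Mut, and SCD alone made up 22.7% to 26.7% of that sum. Without SCD the sum was 2538 to 2709 CPM with vector, 2697 to 2739 CPM with WT and 2616 to 2695 CPM with NLS Mut, so that WT overlapped vector once SCD was left out.

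**Figure D1:**
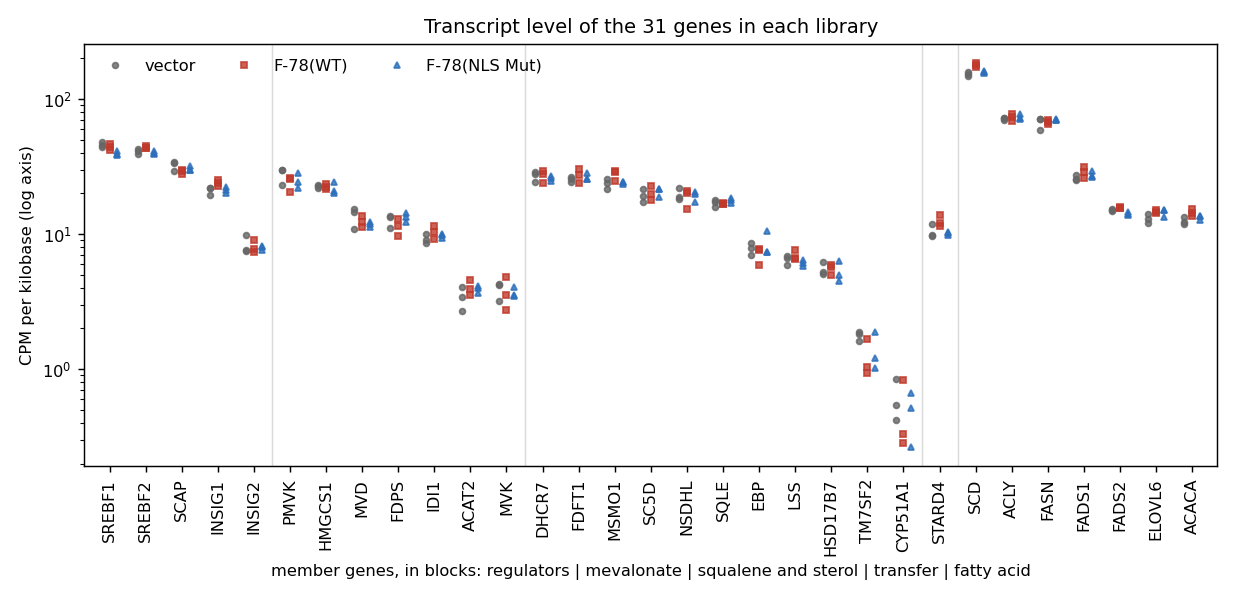
Level of each of the 31 genes in each of the 9 libraries, in CPM per kilobase of the longest transcript on a log axis, with the genes grouped by role and ordered by level within each role. SCD, at a mean of 163 CPM per kilobase, lies above all others, and the spread between genes is far wider than the spread between groups.

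The level of several members is uncertain, because a count without strand leaves out reads where exons of different genes overlap, and a count by strand cannot part the genes in reads that do not keep strand. Adding up the counts of each strand gave 4.79 times the count used for FDPS, 3.70 times for CYP51A1, 3.44 times for ACAT2 and 1.48 times for HMGCS1. The annotation behind the counts is not named, and the overlaps given here are those of GENCODE release 29. In it, exons of RUSC1-AS1 cover 18.6% of the exonic bases of FDPS on the opposite strand, and those of SOD2 cover 26.5% of ACAT2. Those of AC000120.2 cover 79.4% of CYP51A1 on the same strand, where counting by strand does not part the genes. Those of CYP51A1-AS1 cover 3.85% of it on the opposite strand. The source of the larger strand count of CYP51A1 was not tested. The values of CYP51A1 also rest on 15 to 73 reads a library.

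Between WT and vector, 1 of the 31 genes passed the edgeR test, SCD, which was higher with WT. In bulk RNA, a higher level per cell and a larger share of cells with the transcript cannot be told apart. Over all 18653 genes tested, 0.558% were called, in either direction. At an unadjusted p under 0.05 stood 7 members, against 11.7% of all tested genes. In each of the 3 comparisons the median SE was 0.08 for the members and 0.14 for all tested genes. A difference of a given size therefore reached a small p more readily among the members, and the shares of all genes are not a like measure. The 3 WT libraries all lay above the 3 vector libraries for 6 members (SCD, ACACA, INSIG1, SREBF2, FADS2 and ELOVL6), against 6.53% of all tested genes, and below them for 0 members, against 6.54% of all tested genes. The median log2 fold change of the 31 genes was 0.0071, with 17 above 0, and that of all tested genes was -0.0023, with 49.5% above 0. The median of the members moved to 0.06 with the GC and length correction.

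Between NLS Mut and vector, 0 members passed the edgeR test, where 0.793% of all tested genes were called. SREBF1 and ELOVL6 were the 2 members with an unadjusted p under 0.05, against 12.2% of all tested genes. Over the 31 genes, none lay wholly above vector, against 9.28% of all tested genes, and 2 (SREBF1 and FADS2) lay wholly below it, against 8.82%. The median log2 fold change of the 31 genes was -0.03, and it was 0.022 with the GC and length correction and 0.011 with the counts of each strand added. DESeq2, run on the same counts, called 1 member, SREBF1, beside 2.31% of all tested genes.

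Between WT and NLS Mut, 0 members passed the edgeR test, where 0.504% of all tested genes were called. DESeq2 called 2, SCD and STARD4, beside 1.69% of all tested genes. With the GC and length correction, edgeR called 2.77% of the genes tested. An unadjusted p under 0.05 was found for 7 members, against 11.6% of all tested genes. The WT libraries lay wholly above the NLS Mut libraries for 8 members (LSS, MSMO1, INSIG1, SREBF1, SREBF2, STARD4, SCD and FADS2), against 8.25% of all tested genes, and wholly below them for 0, against 9.42%. The median log2 fold change of the members was 0.05, with 21 of 31 above 0, beside -0.0054 for all tested genes. The 3 comparisons share libraries in pairs, so that the counts in one are not independent of those in another.

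**Figure D2:**
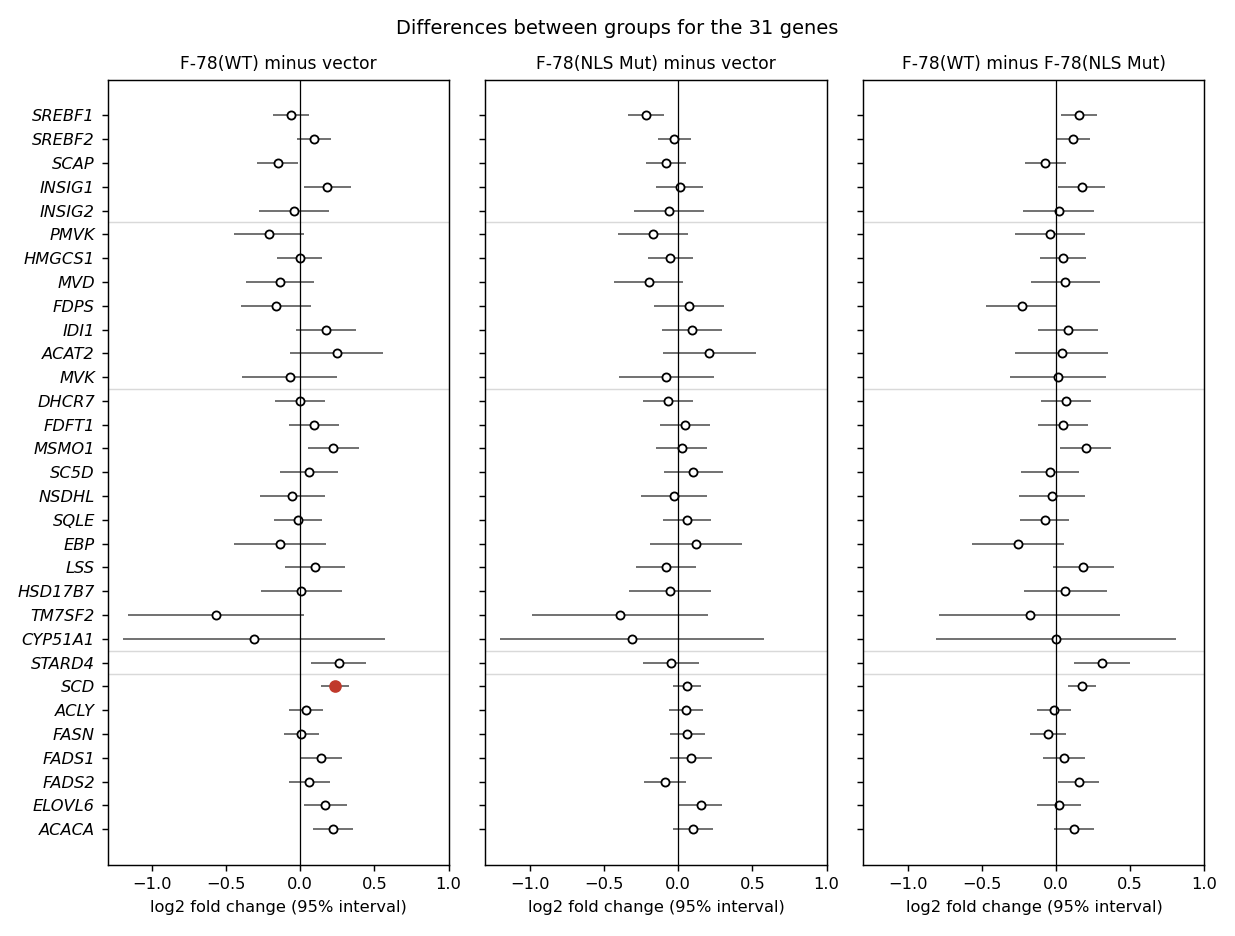
Log2 fold change (points) and 95% interval (lines) of the 31 genes in the 3 comparisons, with the genes in the same order as in the plot of levels. Filled red marks an adjusted p under 0.05 by edgeR's quasi-likelihood test, which only SCD between WT and vector reached, and most intervals lie within a log2 change of 0.5 on either side of 0.

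Among the fatty acid enzymes, SCD is the stearoyl-CoA desaturase, which converts saturated to monounsaturated fatty acids. The gene (ENSG00000099194.6) lies on chr10:100347124-100364834 on the plus strand (GRCh38, GENCODE release 29). It was at 842, 819 and 788 CPM in the vector libraries, at 987, 963 and 930 CPM with WT, and at 852, 833 and 869 CPM with NLS Mut. Every WT library lay above every library of both other groups, which overlapped each other. Against vector the level with WT was 17.6% higher (95% interval 10.1% to 25.6%, log2 fold change 0.23, SE 0.05, adjusted p = 0.0135, edgeR's quasi-likelihood test). The difference from NLS Mut was 12.8% (interval 5.54% to 20.5%, log2 0.17, SE 0.05), which did not pass that test (adjusted p = 0.080). Between NLS Mut and vector the log2 difference was 0.06 (95% interval -0.04 to 0.16, adjusted p = 0.65, edgeR). With the GC and length correction the difference of WT from vector was 0.21 (adjusted p = 0.00132, edgeR) and that of NLS Mut 0.05.

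The call of SCD against vector was made in 9 of 10 alternatives that kept all the libraries of both groups, and was lost with only those groups in the fit (log2 0.23, adjusted p = 0.0881, edgeR). It was also lost without vector replicate 2 (adjusted p = 0.0742, edgeR), without vector replicate 3 (adjusted p = 0.132) and without WT replicate 1 (adjusted p = 0.12), while the fold change stayed between 0.21 and 0.26. Against NLS Mut, SCD was called by DESeq2 (log2 0.18, adjusted p = 0.0102), with the GC and length correction (0.16, adjusted p = 0.0101, edgeR), with only those 2 groups in the fit (0.18, adjusted p = 0.0121, edgeR) and without vector replicate 1 (0.18, adjusted p = 0.00459, edgeR). That difference was called in 4 of 10 alternatives with all libraries of both groups and in 1 of 9 without 1 library.

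ACACA, acetyl-CoA carboxylase, which commits acetyl-CoA to fatty acid synthesis, was at 132, 122 and 118 CPM with vector, at 154, 136 and 144 CPM with WT, and at 126, 136 and 137 CPM with NLS Mut. The WT libraries lay above the vector libraries and overlapped those of NLS Mut. The log2 difference between WT and vector was 0.22 (95% interval 0.09 to 0.36), which did not pass the edgeR test (adjusted p = 0.134). It was called by DESeq2 (0.23, adjusted p = 0.045), with the GC and length correction (0.21, adjusted p = 0.0453, edgeR) and without vector replicate 1 (0.27, adjusted p = 0.00651, edgeR). Calls were made in 3 of 10 alternatives with all libraries of both groups and in 1 of 9 without 1 library.

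ELOVL6, which lengthens palmitate to stearate, the substrate of SCD, was at 90.4, 83.5 and 78.1 CPM with vector, at 97.1, 92.7 and 93.3 CPM with WT, and at 96.5, 96.8 and 86.0 CPM with NLS Mut. Its WT libraries lay above those of vector, with a log2 difference of 0.17 (95% interval 0.02 to 0.31, adjusted p = 0.341, edgeR). The difference between NLS Mut and vector was 0.15 (interval 0.0033 to 0.30, adjusted p = 0.397, edgeR), and without vector replicate 1 the difference of WT from vector was called (0.22, adjusted p = 0.0491, edgeR). With the GC and length correction the differences from vector were 0.11 with WT (adjusted p = 0.478, edgeR) and 0.085 with NLS Mut (adjusted p = 0.626).

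FASN, the synthase that builds palmitate, had its lowest value in vector replicate 1. The vector libraries were at 509, 613 and 609 CPM, those of WT at 562, 596 and 580 CPM, and those of NLS Mut at 595, 602 and 610 CPM. The 3 groups overlapped, with a log2 difference from vector of 0.0067 with WT (95% interval -0.11 to 0.13) and of 0.06 with NLS Mut (interval -0.06 to 0.18, adjusted p = 0.729, edgeR). FASN had the highest GC content of the 31 genes, 65.3%, and the part of GC content in its differences was not tested. With the GC and length correction its difference between WT and vector became 0.12 (adjusted p = 0.132, edgeR) and that between NLS Mut and vector 0.20 (adjusted p = 0.0038, edgeR). Without vector replicate 1 the difference between NLS Mut and vector was -0.03 (adjusted p = 0.83, edgeR).

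ACLY, which makes cytosolic acetyl-CoA from citrate, ranged from 300 to 338 CPM over the 9 libraries, and its log2 differences lay between -0.01 and 0.05. FADS1, a desaturase of polyunsaturated fatty acids, ranged from 114 to 141 CPM and had a log2 difference of 0.14 between WT and vector (95% interval -0.0024 to 0.28, adjusted p = 0.436, edgeR). FADS2, the desaturase of the preceding step, was at 79.0 to 80.6 CPM with WT, 74.7 to 78.3 CPM with vector and 70.0 to 74.3 CPM with NLS Mut, so that the 3 groups did not overlap. Its difference between WT and NLS Mut was 0.15 (interval 0.01 to 0.29, adjusted p = 0.388, edgeR). All 7 fatty acid genes had a log2 difference above 0 between WT and vector, from 0.0067 for FASN to 0.23 for SCD with a median of 0.14. Above 0 were also 6 of 7 between NLS Mut and vector, with a median of 0.06, and 5 of 7 between WT and NLS Mut with a median of 0.05.

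**Figure D3:**
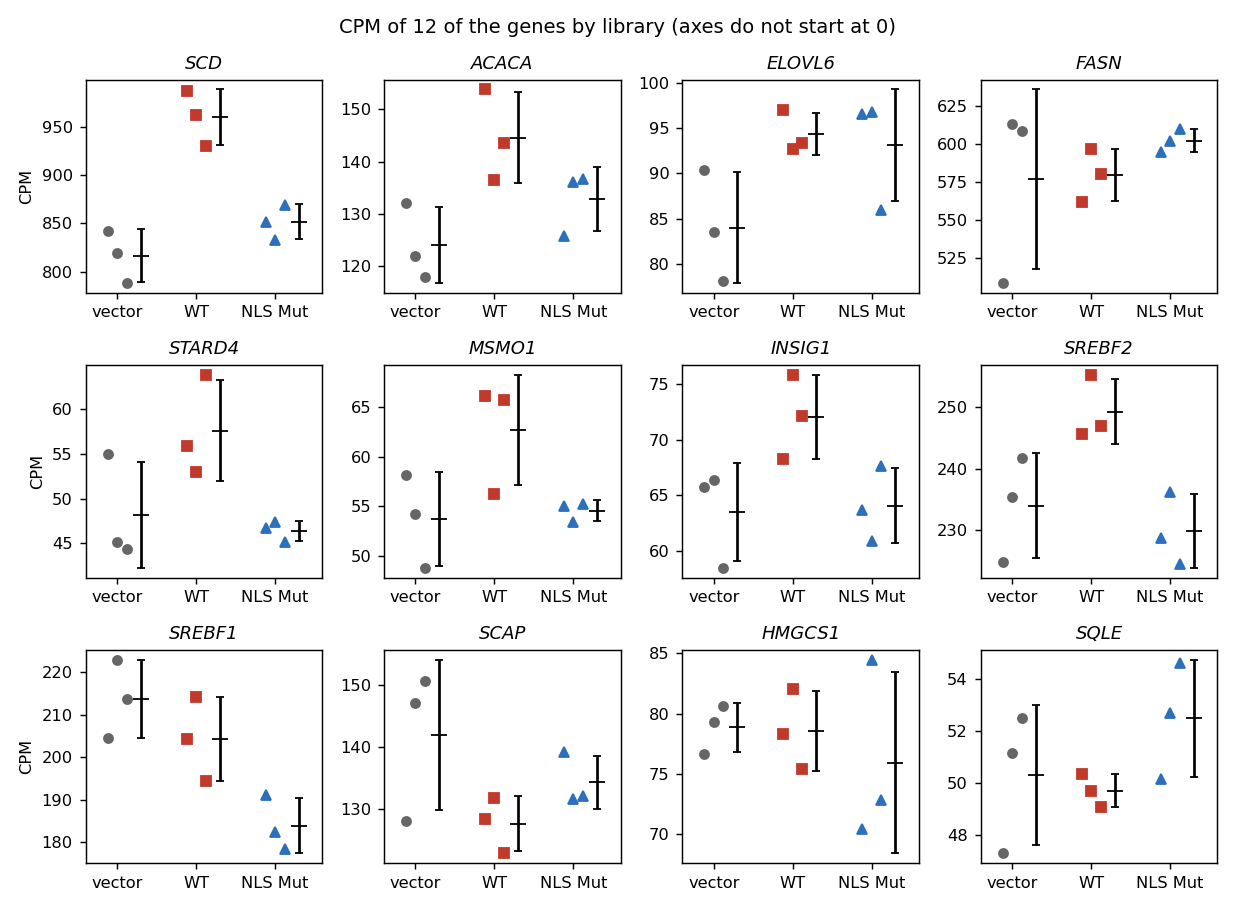
CPM of 12 of the genes in each library, with the 3 replicates of each group from left to right and the mean ± SD (n = 3) beside them in black. The vertical axes do not start at 0. For SCD the WT libraries, from 930 to 987 CPM, lie above all others, and for FASN the lowest value, 509 CPM, is vector replicate 1.

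STARD4, which carries cholesterol between membranes and was the 1 sterol transfer gene, was at 55.0, 45.1 and 44.4 CPM with vector, at 55.9, 53.0 and 63.9 CPM with WT, and at 46.7, 47.4 and 45.2 CPM with NLS Mut. The WT libraries lay above those of NLS Mut, and vector replicate 1 lay within the range of WT. The difference of WT from NLS Mut was 23.9% (95% interval 8.85% to 41.1%, log2 0.31, SE 0.09), which did not pass the edgeR test (adjusted p = 0.124). DESeq2 called this difference (0.32, adjusted p = 0.0471), and so did edgeR with the GC and length correction (0.35, adjusted p = 0.0052), with only the 2 groups compared (0.32, adjusted p = 0.0369) and without vector replicate 1 (0.31, adjusted p = 0.0247). Calls were made in 4 of 10 alternatives with all libraries of both groups and in 1 of 9 without 1 library. Against vector the difference was 0.26 (interval 0.07 to 0.44, adjusted p = 0.218, edgeR), 0.36 without vector replicate 1 (adjusted p = 0.00856, edgeR) and 0.20 with the GC and length correction (adjusted p = 0.207, edgeR). STARD4 had the lowest GC content of the 31 genes, 34.2%, and the part of GC content in its differences was not tested.

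Among the regulators, SREBF1, the gene of SREBP1, was at 204, 223 and 214 CPM with vector, at 204, 214 and 194 CPM with WT, and at 191, 182 and 178 CPM with NLS Mut. The NLS Mut libraries lay below all 6 others. Against vector the log2 difference was -0.22 (95% interval -0.34 to -0.09, SE 0.06), which did not pass the edgeR test (adjusted p = 0.0849). It was called by DESeq2 (-0.22, adjusted p = 0.0123), with scaling by total counts (-0.24, adjusted p = 0.0427, edgeR) and without vector replicate 1 (-0.25, adjusted p = 0.00449, edgeR). Calls were made in 2 of 10 alternatives with all libraries of both groups and in 1 of 9 without 1 library. With the GC and length correction the difference was -0.09 (adjusted p = 0.487, edgeR), and the GC content of SREBF1 was 62.8%. Between WT and NLS Mut the log2 difference was 0.15 (interval 0.03 to 0.27, adjusted p = 0.29, edgeR) and 0.14 with the correction (adjusted p = 0.134). Whether GC content had a part in these differences was not tested.

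SREBF2, the gene of SREBP2, was at 225, 236 and 242 CPM with vector, at 246, 255 and 247 CPM with WT, and at 229, 236 and 225 CPM with NLS Mut. The WT libraries lay above the other 6, by a log2 difference of 0.09 from vector (95% interval -0.02 to 0.20, adjusted p = 0.551, edgeR) and of 0.12 from NLS Mut (interval 0.0035 to 0.23, adjusted p = 0.412, edgeR). These became 0.15 (adjusted p = 0.11, edgeR) and 0.10 (adjusted p = 0.279) with the GC and length correction. INSIG1, which retains SCAP in the ER, was at 65.7, 66.4 and 58.5 CPM with vector, 68.2, 75.8 and 72.2 CPM with WT, and 63.7, 60.9 and 67.6 CPM with NLS Mut. Here too the WT libraries lay above the other 6, although neither difference passed the test. The log2 differences were 0.18 from vector (interval 0.03 to 0.34, adjusted p = 0.332, edgeR) and 0.17 from NLS Mut (interval 0.01 to 0.33, adjusted p = 0.381, edgeR), and 0.17 and 0.18 with the GC and length correction.

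SCAP, the escort, was at 128, 147 and 151 CPM with vector, at 128, 132 and 123 CPM with WT, and at 139, 132 and 132 CPM with NLS Mut. Vector replicate 1 lay among the F-78 libraries, while the other vector libraries lay above all of them. The log2 difference between WT and vector was -0.15 (95% interval -0.29 to -0.02, adjusted p = 0.347, edgeR). Without vector replicate 1 it was -0.22 and was called (adjusted p = 0.0168, edgeR). With the GC and length correction it was -0.04 (adjusted p = 0.837, edgeR). The GC content of SCAP was 62.3%, and its part in these differences was not tested. INSIG2, the other retention protein, ranged from 23.3 to 31.2 CPM over the 9 libraries, and its log2 differences lay between -0.06 and 0.02 with 95% intervals within -0.30 to 0.25. They lay between -0.14 and 0.05 with the GC and length correction.

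Among the 7 mevalonate enzymes, 0 passed the edgeR test in any comparison and 0 had an unadjusted p under 0.05. HMGCS1, which makes the HMG-CoA from which mevalonate is formed, was at 76.6, 79.3 and 80.6 CPM with vector, at 78.3, 82.0 and 75.4 CPM with WT, and at 70.4, 84.5 and 72.8 CPM with NLS Mut. The 3 groups overlapped. Its log2 difference between WT and vector was -0.0052 (95% interval -0.16 to 0.15, adjusted p = 0.99, edgeR), an interval of -10.4% to 10.8% in percent, and -0.05 with the GC and length correction (adjusted p = 0.854, edgeR). The other 6 had log2 differences from vector of -0.21 for PMVK, which phosphorylates phosphomevalonate, to 0.24 for ACAT2, which joins acetyl-CoA units, with WT. With NLS Mut they ran from -0.20 for MVD, the mevalonate diphosphate decarboxylase, to 0.21 for ACAT2. The smallest p-value among them was that of FDPS, the farnesyl diphosphate synthase, between WT and NLS Mut, with a difference of -0.23 (interval -0.47 to 0.0062, adjusted p = 0.448, edgeR). IDI1, the isomerase of the isoprenoid units, stood at 0.17 between WT and vector (interval -0.03 to 0.38), and MVK, mevalonate kinase, at -0.07 (interval -0.39 to 0.25).

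Among the 11 squalene and sterol enzymes, MSMO1, which oxidizes methyl groups of the sterol ring, was the 1 with an unadjusted p under 0.05. It was at 58.2, 54.2 and 48.8 CPM with vector, at 66.1, 56.3 and 65.7 CPM with WT, and at 55.0, 53.4 and 55.3 CPM with NLS Mut. The WT libraries lay above those of NLS Mut, by a log2 difference of 0.20 (95% interval 0.03 to 0.37, adjusted p = 0.332, edgeR), and WT replicate 2 lay below vector replicate 1. Against vector the difference was 0.22 (interval 0.05 to 0.39, adjusted p = 0.26, edgeR), and it was called without vector replicate 1 (0.30, adjusted p = 0.0393, edgeR). With the GC and length correction the differences of WT were 0.22 from NLS Mut and 0.18 from vector, and neither was called (adjusted p = 0.0936 and 0.264, edgeR).

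SQLE, squalene epoxidase, the oxygen-requiring step into the sterols, was at 47.3, 51.2 and 52.5 CPM with vector, at 50.4, 49.7 and 49.1 CPM with WT, and at 50.2, 52.7 and 54.6 CPM with NLS Mut. The groups overlapped, and 2 of the NLS Mut libraries lay above all the others. Its log2 difference was -0.02 between WT and vector (95% interval -0.18 to 0.14) and -0.08 between WT and NLS Mut (interval -0.24 to 0.08), and -0.03 and -0.07 with the GC and length correction. LSS, which closes the rings, was at 32.4 to 37.6 CPM with WT and at 28.8 to 31.9 CPM with NLS Mut, a difference of 0.18 (interval -0.02 to 0.39, adjusted p = 0.501, edgeR) between groups that did not overlap. FDFT1, the squalene synthase, NSDHL, HSD17B7 and SC5D, which act on the sterol ring, and DHCR7, which makes a late reduction on the way to cholesterol, had differences between -0.07 and 0.10 in the 3 comparisons. The difference of EBP, a sterol isomerase, between WT and NLS Mut was -0.26 (interval -0.57 to 0.06). TM7SF2, a sterol reductase, with 43 to 107 reads a library, had the member difference farthest from 0, -0.57 between WT and vector (interval -1.16 to 0.03, adjusted p = 0.452, edgeR). The interval of CYP51A1, the sterol demethylase, ran from -1.20 to 0.57 in that comparison. Only large changes of this gene could have been detected with the 15 to 73 reads a library counted on it.

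**Figure D4:**
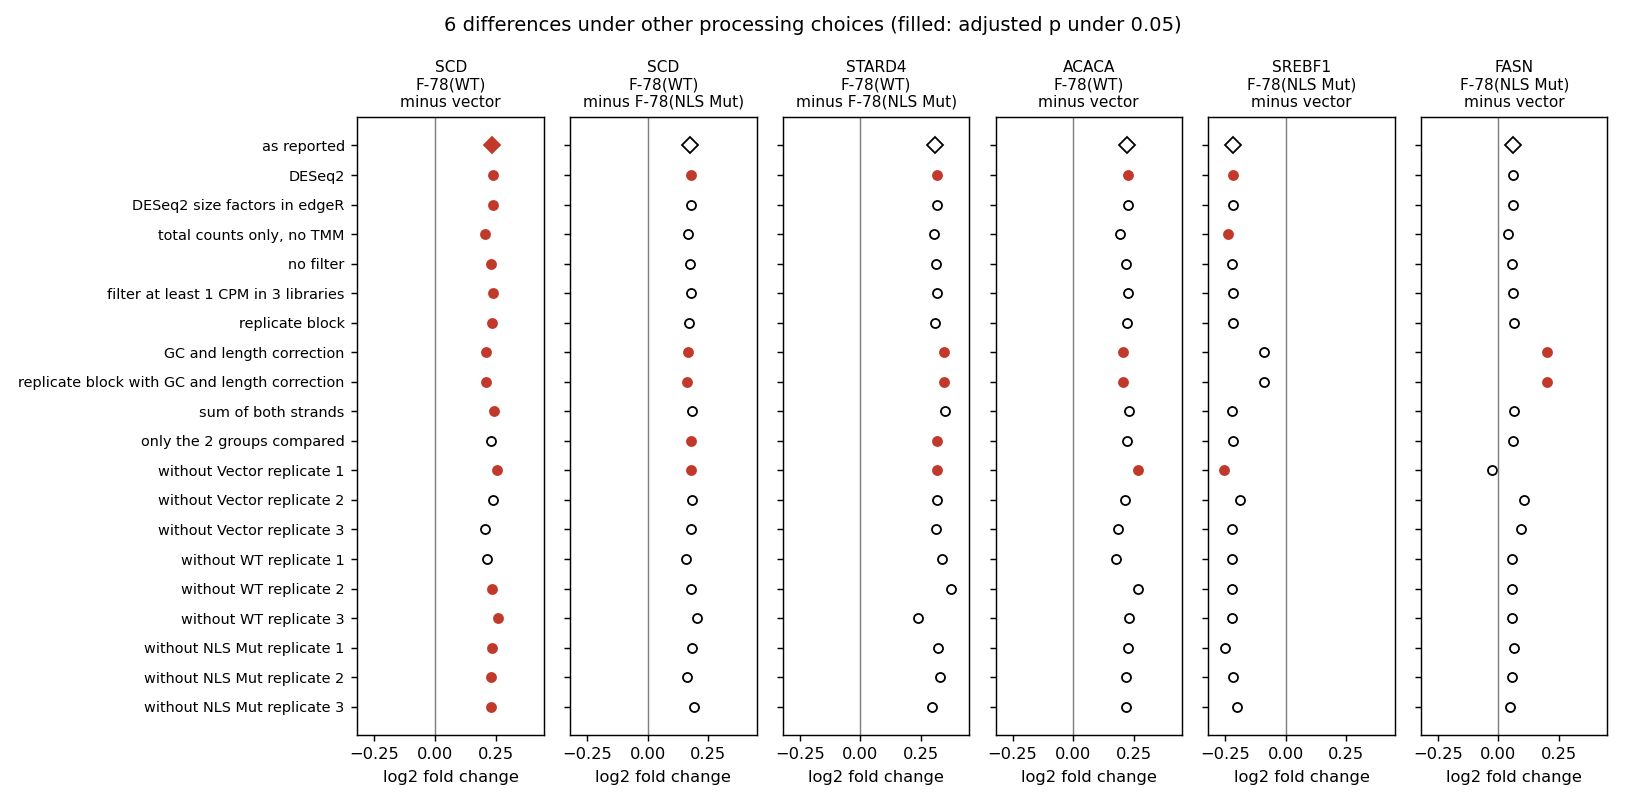
Log2 fold change of 6 differences as reported (diamond) and under the other processing choices (circles), with an adjusted p under 0.05 filled in red. The differences of SCD stay between 0.16 and 0.26 in all of them, whereas the difference of SREBF1 moves from -0.22 to -0.09 and that of FASN from 0.06 to 0.20 with the GC and length correction.

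Genes around the pathway were counted in 5 lists of 91 genes, of which 86 were tested and 0 passed the edgeR test in any of the 3 comparisons. DESeq2 called 2 of them between WT and vector, 2 between NLS Mut and vector and 1 between WT and NLS Mut. Beside these stood 1.4%, 2.31% and 1.69% of all tested genes. The counts at an unadjusted p under 0.05 follow for each list. Of the 12 genes of SREBP processing and degradation, 1, 2 and 2 had an unadjusted p under 0.05 in those comparisons, beside 11.7%, 12.2% and 11.6% of all tested genes. MBTPS1, the site-1 protease that makes the first cut in SREBP, had a log2 difference of 0.15 between WT and vector (95% interval 0.03 to 0.26, adjusted p = 0.269, edgeR) and of 0.15 between WT and NLS Mut (interval 0.04 to 0.27, adjusted p = 0.263, edgeR). MBTPS2, the site-2 protease, had the smallest p of the list between NLS Mut and vector, with a difference of 0.18 (interval 0.03 to 0.33, adjusted p = 0.28, edgeR).

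Of the 18 tested genes of sterol transport, storage and LXR targets, 2, 3 and 2 had an unadjusted p under 0.05, beside the same shares of all tested genes. The smallest p were those of LIPA, the lysosomal lipase that frees cholesterol from its esters, between WT and vector (0.17, interval 0.05 to 0.30, adjusted p = 0.194, edgeR) and between WT and NLS Mut (0.16, adjusted p = 0.234), and that of SOAT1, which esterifies cholesterol, between NLS Mut and vector (0.19, interval 0.07 to 0.32, adjusted p = 0.146). Of the 12 genes of the isoprenoid branches, 1, 4 and 2 stood under 0.05, beside 11.7%, 12.2% and 11.6% of all tested genes. COQ2, of ubiquinone synthesis, differed by 0.23 between WT and vector (interval 0.05 to 0.41, adjusted p = 0.282, edgeR), and RABGGTA, of Rab prenylation, by -0.34 between NLS Mut and vector (interval -0.56 to -0.11, adjusted p = 0.158) and 0.26 between WT and NLS Mut (adjusted p = 0.341).

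The list of other acyl chain synthesis and glycerolipid genes had 7, 5 and 5 of 27 tested genes under an unadjusted p of 0.05, where 11.7%, 12.2% and 11.6% of all tested genes stood. LPIN1, a phosphatidate phosphatase of glycerolipid synthesis, differed by 18.3% between WT and vector (interval 6.97% to 30.9%, adjusted p = 0.123, edgeR). ACSS2, which makes acetyl-CoA from acetate, differed by 20.4% between WT and NLS Mut (interval 7.85% to 34.5%, adjusted p = 0.116, edgeR). MLXIPL, the gene of the carbohydrate response factor ChREBP, had a log2 difference of -0.47 between NLS Mut and vector (interval -0.76 to -0.18, adjusted p = 0.116, edgeR). All 3 were called by DESeq2.

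Fatty acid oxidation, the opposite direction of the pathway, had 3, 1 and 2 of 17 tested genes under an unadjusted p of 0.05, beside 11.7%, 12.2% and 11.6% of all tested genes. Its genes had a median log2 difference of 0.12 between WT and vector, with 14 of 17 above 0, beside a median of 0.14 for the fatty acid synthesis genes and 49.5% above 0 over all tested genes. HADHB, a subunit of the mitochondrial trifunctional protein, differed by 16.7% between WT and vector (interval 6.98% to 27.3%, adjusted p = 0.0965, edgeR) and by a log2 of 0.15 between WT and NLS Mut (adjusted p = 0.328). ACADVL, the dehydrogenase of very long acyl chains, had the smallest p between NLS Mut and vector, with a log2 difference of -0.17 (interval -0.29 to -0.04, adjusted p = 0.211, edgeR).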

How the data were processed

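RNA-Seq data of 9 libraries were used. The authors deposited the raw counts of reads on each gene, in the layout that STAR writes, without normalization. The submitters' processing notes name STAR 2.7.9a, DESeq2 1.36.0 and GRCh38.p14, and the annotation release and the test are not given in the sources used here. The deposited unstranded column was taken, because 50.6% to 51.9% of stranded reads fell on the forward strand. The 4 summary lines that name no gene, with 27.6% to 30.7% of the reads, were left out. With edgeR 4.0.16 (R 4.3.3), the 18653 genes that passed filterByExpr were scaled by TMM (0.989 to 1.02) and tested by quasi-likelihood F in 1 model of all 9 libraries. The SE is the size of the log2 difference over the root of F, intervals are at 95%, and Benjamini-Hochberg adjustment ran over all genes tested in a comparison, with calls under 0.05. The smallest p-value of an exact permutation test of 3 against 3 is 0.10, so no such test was run.

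Symbols came from a table of gene names. Lengths, GC content and coordinates came from GENCODE release 29 (longest transcript), and promoters from RefSeq. Release 29 need not be the annotation on which the reads were counted. The genes, the lists and the tests were chosen with earlier results of these data known. Values in full are given for members called in a comparison, for the 8 members with the smallest p, and for SREBF1, SREBF2, SCAP, INSIG1, INSIG2, HMGCS1, SQLE, FASN and SCD. Of the other lists, the gene with the smallest p in each comparison is named. Alternatives were the test of DESeq2 1.42.0 or its size factors, total counts, other filters, thresholds of 0.01 and 0.10, both strands summed, a replicate block, only the 2 groups compared, a GC and length correction (loess, span 0.3) and leaving out each library. The procedures were tested on simulated data, with changed genes drawn from all tested genes. Of genes changed by a log2 of 0.25 between WT and vector, edgeR called 10.4% and DESeq2 9.95%, so most changes of that size went uncalled. At a log2 of 0.5 they called 45.8% and 44.3%. Of the calls, 6.54% with edgeR and 9.47% with DESeq2 were false. The simulated libraries had no slope on GC content and no library unlike the rest of its group. These shares therefore need not hold for the data, and recovery among the members alone was not simulated.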

Additional observations from a re-analysis of the deposited data

How the results depend on the processing

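No direction of a called member changed in any alternative. Of 741 values of the 13 named members (39 differences, each under 19 alternatives), 680 kept their direction and their side of the threshold, 23 passed it only in the alternative, 4 passed it only as reported, and 34 changed sign, none of them called as reported. The limits are 3 libraries a group, a median biological coefficient of variation of 11.1%, and vector replicate 1, whose removal changed the counts of calls most.

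Members called between WT and vector, 1 as reported, were 2 with DESeq2 and with the GC and length correction, alone or with the block (2), and 0 with only the 2 groups compared or at an adjusted p under 0.01 (0). Leaving out 1 library gave 0 (without vector replicates 2 or 3 or WT replicate 1) to 6 (without vector replicate 1, where 6.33% of all tested genes were called against 0.558% as reported). Between NLS Mut and vector the count was 0 as reported, 1 with DESeq2, with total counts, with the correction (1 with the block too) and at 0.10 (1), and 0 to 1 without 1 library (1 without vector replicate 1). Between WT and NLS Mut it was 0 as reported, 2 with DESeq2, with the correction (2 with the block too) and with only the 2 groups compared (2), 1 at 0.10, and 0 to 2 without 1 library (2 without vector replicate 1). Other pathway genes called, 0 as reported in every comparison, were for WT against vector 2 with DESeq2 and with the correction (2 with the block too), 1 at 0.10 and 0 to 9 without 1 library. For NLS Mut against vector they were 2 with DESeq2, 1 with the correction (1 with the block too) and 0 to 8 without 1 library, and for WT against NLS Mut 1 with DESeq2, 2 with the correction, 3 with the block too and 0 to 1 without 1 library. The highest of these ranges was each time without vector replicate 1, where 6.33%, 5.05% and 1.95% of all tested genes were called in the 3 comparisons. With total counts these shares were 0.756%, 0.922% and 0.541%, and with the correction and block 1.43%, 1.76% and 3.04%. Those of DESeq2, of the correction alone and of only the 2 groups compared are given below. At 0.01 and 0.10 the calls over all genes were not counted.

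The median log2 fold change of the members was, for WT against vector, -0.021 with total counts, 0.059 with the correction, 0.058 with the block too and 0.0051 to 0.044 without 1 library. For NLS Mut against vector it was -0.049 with total counts, 0.022 with the correction, 0.023 with the block too, 0.011 with both strands summed and -0.053 to 0.0096 without 1 library. For WT against NLS Mut it was 0.037 to 0.075 without 1 library.

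Signs changed for WT against vector in FASN with total counts (-0.021), in HMGCS1 with DESeq2 (0.00060), its size factors (0.00058) and both strands summed (0.095), and in SREBF1 with the correction (0.048, with the block 0.048). For NLS Mut against vector they changed in HMGCS1 with both strands summed (0.026), in INSIG1 and MSMO1 with total counts (-0.012 and -1.3e-05), and with the correction in INSIG1 (-0.0083, with the block -0.0076), MSMO1 (-0.040, with the block -0.041), SCAP (0.043, with the block 0.042) and SREBF2 (0.046, with the block 0.045). Without 1 library the ranges that crossed 0 were, for WT against vector, -0.077 to 0.057 in FASN, -0.033 to 0.027 in HMGCS1, -0.14 to 0.087 in INSIG2 and -0.062 to 0.011 in SQLE. For NLS Mut against vector they were -0.028 to 0.10 in FASN, -0.053 to 0.041 in INSIG1, -0.14 to 0.065 in INSIG2, -0.049 to 0.076 in MSMO1 and -0.11 to 0.047 in STARD4, and for WT against NLS Mut -0.030 to 0.053 in ELOVL6 and -0.072 to 0.090 in INSIG2. The causes were not tested.

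Same-numbered libraries were not treated as pairs, since their deviations correlated by only -0.02 to 0.06 over all tested genes. The labels do not say whether they belong together, and a low correlation cannot settle it. With the replicate number as a block, 1, 0 and 0 members were called in the 3 comparisons, as without it, and over all genes 232, 230 and 212 against 104, 148 and 94. DESeq2 called 262, 430 and 316 genes (1.4%, 2.31% and 1.69% of those tested), and the GC and length correction 220, 277 and 504 (1.21%, 1.52% and 2.77%). With only the 2 groups compared the calls were 26, 151 and 315 (0.144%, 0.843% and 1.8%). Calls higher and lower for WT against vector were 40 and 64 as reported, 26 and 115 with total counts and 139 and 81 with the correction, and for NLS Mut against vector 55 and 93, 39 and 133, and 166 and 111.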
